A study of Apis mellifera with 48 samples.

Results

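In the honey bee mushroom body, 60 genes of 15314 gene identifiers counted had different median levels in bees of colony 1 and bees of colony 3 in both workers and drones. They were chosen by their level in CPM, the reads of a gene for each 1000000 gene reads of its library. Within each sex, with both collection times pooled, the median over colony 3 bees was divided by the median over colony 1 bees. A gene was taken if this ratio was at least 1.7 in both sexes or at most 0.59 in both sexes, and if the higher of the 2 medians was at least 3 CPM in each sex. The level minimum was met by 8830 genes. Of these, 34 genes (0.385%) were higher in colony 3 and 26 genes (0.294%) were lower. Colony 2 took no part in the choice. Since the difference between colonies 1 and 3 chose these genes, it is described here without a test, and the shares above are a product of the choice.

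The libraries came from 48 single bees of Apis mellifera, 24 drones and 24 workers. In each sex 12 bees were inactive and were taken at 9 am, and 12 were active and were taken at 3 pm, drones shortly before flight and workers as they made ready to forage. Activity and clock time are therefore the same division of the bees. Mushroom bodies were dissected from the brains of flash-frozen bees, and poly(A)-enriched RNA was made into strand-specific libraries. The bees came from 3 colonies kept at 1 site, each headed by its own queen, which mated naturally and was unrelated to the other 2 queens. Among drones, 7 were from colony 1 (5 at 9 am and 2 at 3 pm), 3 from colony 2 (1 and 2) and 14 from colony 3 (6 and 8). Among workers, 10 were from colony 1 (5 and 5), 10 from colony 2 (5 and 5) and 4 from colony 3 (2 and 2). Bees of one colony share a queen and a hive, so what they inherit and how they were kept cannot be told apart, and the p-values below measure the spread between bees of these 3 colonies.

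The mushroom bodies are the paired centres of the insect brain in which smell and sight are brought together and in which learning and memory take place. A colony is one family: workers are diploid females that carry a chromosome set from the queen and another from one of the several drones she mated with. Drones are haploid males that grow from unfertilised eggs and carry a single set, drawn from the queen alone. Sisters of one colony can therefore have different fathers, while a drone shows only what one copy from its mother gives.

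The libraries held 6.69 to 27.1 M gene reads (median 13.9 M, where M is 1000000 reads). The medians per group were 10.4, 11.8 and 13.7 M in drones of colonies 1, 2 and 3, and 14.9, 14.5 and 16.7 M in workers. Depth thus moved with colony in drones; with every library thinned to 6.69 M reads, the choice found 62 genes, 52 of them among the 60. No 2 libraries were identical. The identifiers are used as deposited, since none of them was paired with a gene name in the tables used here. For that reason the 60 genes are described without names, functions, positions or sequences, and marker genes of the tissue or of other cell types could not be checked. Gene lengths were not used, so levels are compared between bees for one gene and never between genes. In whole tissue, a lower level of an RNA in each cell and fewer cells that carry it cannot be told apart.

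The 34 genes higher in colony 3 spanned a wide range of levels. Their medians over colony 3 workers ran from 3.08 to 404 CPM, and those over colony 3 drones from 3.02 to 2748 CPM. Over the 34 genes, the median colony 3 to colony 1 ratio was 2.24 in workers and, ranked separately, 2.58 in drones. The 26 genes lower in colony 3 had colony 1 medians of 3.41 to 146 CPM in workers and 3.11 to 230 CPM in drones. The gene nearest to the upper limit on the inside, GB55470, had a drone ratio of 1.73, and the nearest on the outside, GB49078, had a worker ratio of 1.69. At the lower limit these were GB46047 with a drone ratio of 0.588 and GB53064 with a drone ratio of 0.595.

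The difference between the 2 colonies was one of medians, not of every bee. In no gene of the 60 were colonies 1 and 3 free of overlap in both sexes, and none of the 8830 genes was (0%). In workers alone, 5 of the 60 genes had no overlap (3 higher and 2 lower in colony 3), against 0.781% of the 8830 genes (0.374% higher and 0.408% lower). In drones alone 0 of the 60 were free of overlap, against 0.204% (0.102% higher and 0.102% lower). The choice used these bees, so nothing is read from these shares. When one bee of colony 1 or 3 was left out at a time, 28 of the 60 genes (15 higher and 13 lower) passed the limits in all 35 repeats. The gene kept in the fewest repeats, GB46302, was kept in 17.

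The colony direction was also read within each time of day, where the sets hold as few as 2 bees. These are the bees that chose the genes, so a shared direction follows largely from the choice. Colony 3 lay on the same side as in the pooled choice in 55 of 60 genes in 9 am workers, 59 in 3 pm workers, 53 in 9 am drones and 58 in 3 pm drones. In 46 of 60 genes it did so in all 4 sets, and in 11 of 60 (6 higher, 5 lower) the ratio also passed the limits in all 4. The labels place the libraries in 7 pools. With a term for each pool in the fit, the colony difference had its direction in both sexes in 60 of 60 genes. Without these terms it did so in 59 of 60 in each sex, the exceptions being GB51306 in workers (log2 difference -0.42) and GB44923 in drones (-0.27), 2 genes chosen after their values were seen. With pool terms the drone difference of GB41302, chosen in the same way, was only -0.099. The genes were chosen for this direction in the same bees, so nothing about pool is read from these counts.

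Genes were ranked by the smaller of their worker and drone log2 differences. Among genes higher in colony 3, the first in this order was GB52902. Its level in colony 1 workers ranged from 0 to 2.00 CPM (median 0.0772), in colony 2 workers from 5.60 to 8.96 (median 7.45) and in colony 3 workers from 7.61 to 13.5 CPM (median 12.1). Every worker of colonies 2 and 3 was above every worker of colony 1. Its level in drones was split rather than graded: 5 of 7 colony 1 drones had 0 to 0.0827 CPM and the other 2 had 9.06 and 9.71 CPM. Of 14 colony 3 drones, 12 had 9.08 to 19.2 CPM and 2 had 0 and 0.0893 CPM. The 3 colony 2 drones had 2.70, 7.47 and 13.7 CPM. No drone of colonies 1 or 3 lay between 0.0893 and 9.06 CPM, and both colonies held drones on either side of this gap. The 2 low drones of colony 3 came from different pools, 1 was taken at 9 am and 1 at 3 pm, and their libraries held 9.03 and 22.4 M reads.

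The next in this order was GB51780, with 0.285 to 2.64 CPM in colony 1 workers (median 0.537), 0 to 8.25 in colony 2 workers (median 0.748) and 1.33 to 7.52 CPM in colony 3 workers (median 4.76). In drones it had 0.192 to 0.747 CPM in colony 1 (median 0.392), 0.0842, 1.02 and 1.41 CPM in colony 2, and 0.0795 to 12.9 CPM in colony 3 (median 4.24). Colony 1 was low throughout in drones, whereas colony 3 held both low drones (5 at up to 0.664 CPM) and high ones (9 at 3.18 CPM or more). Colony 2 workers were divided in the same way, 6 at up to 0.795 CPM and 4 at 3.77 CPM or more. In 1 sex alone a wider difference was seen in GB50423, chosen after its values were seen, with worker medians of 2.33 CPM in colony 1 and 359 CPM in colony 3. The worker ranges of GB50423 overlapped (0.855 to 37.9 and 1.14 to 1040 CPM), and its drone medians were 1099 and 2748 CPM. No colony 3 worker lay near 359 CPM. The 2 taken at 3 pm had 699 and 1040 CPM, and the 2 taken at 9 am had 1.14 and 18.6 CPM. Colony 1 workers had 0.855 to 13.2 CPM at 9 am and 0.943 to 37.9 CPM at 3 pm. What part the time of day had in this worker difference was not tested.

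Among genes lower in colony 3, the first in the same order was GB55736. It had 126 to 151 CPM in colony 1 drones and 110 to 138 CPM in colony 2 drones, with no low drone in either. In colony 3 drones it had 3.59 to 8.44 CPM in 9 bees and 90.8 to 164 CPM in 5. In workers, 4 bees of colony 1 had up to 7.53 CPM and 6 had 77.6 to 124 CPM, all 10 of colony 2 had 77.0 to 103 CPM, and 3 of colony 3 had 5.11 to 6.98 CPM while 1 had 130 CPM. Across the 48 bees no value fell between 8.44 and 77.0 CPM. The low colony 3 drones were 5 of the 8 taken at 3 pm and 4 of the 6 taken at 9 am. Their depths (11.2 to 19.5 M reads) lay within those of the high ones (9.03 to 22.4 M). The split moved with pool: pools 1, 3 and 4 held 8 low colony 3 drones and 0 high ones, pools 5 and 6 held 4 high and 0 low, and pool 2 held 1 of each. Of the 16 other bees in pools 1, 3 and 4, 13 were high for GB55736 and 3 were low. With pool terms the fitted log2 difference of colony 3 from colony 1 in drones went from -1.44 to -2.21. The part of pool in the split was not tested.

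GB52219, also lower in colony 3, had 3.02 to 5.68 CPM in colony 1 drones and 0.108, 3.05 and 6.15 CPM in colony 2 drones. In colony 3 drones, 9 bees had 0 to 0.0700 CPM and 5 had 2.55 to 5.17 CPM. These were the same 9 and 5 drones as for GB55736, and the 3 colony 3 workers that were low for GB55736 were at 0 for GB52219. In colony 1 workers the genes parted: all 10 bees had 2.09 to 4.63 CPM of GB52219, whether low or high for GB55736. The colony 2 drone with 0.108 CPM of GB52219 was likewise high for GB55736. The low bees of the pair were thus the same bees in colony 3 and not in colonies 1 and 2. This overlap was noticed after the values were seen and was not tested.

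**Figure D1:**
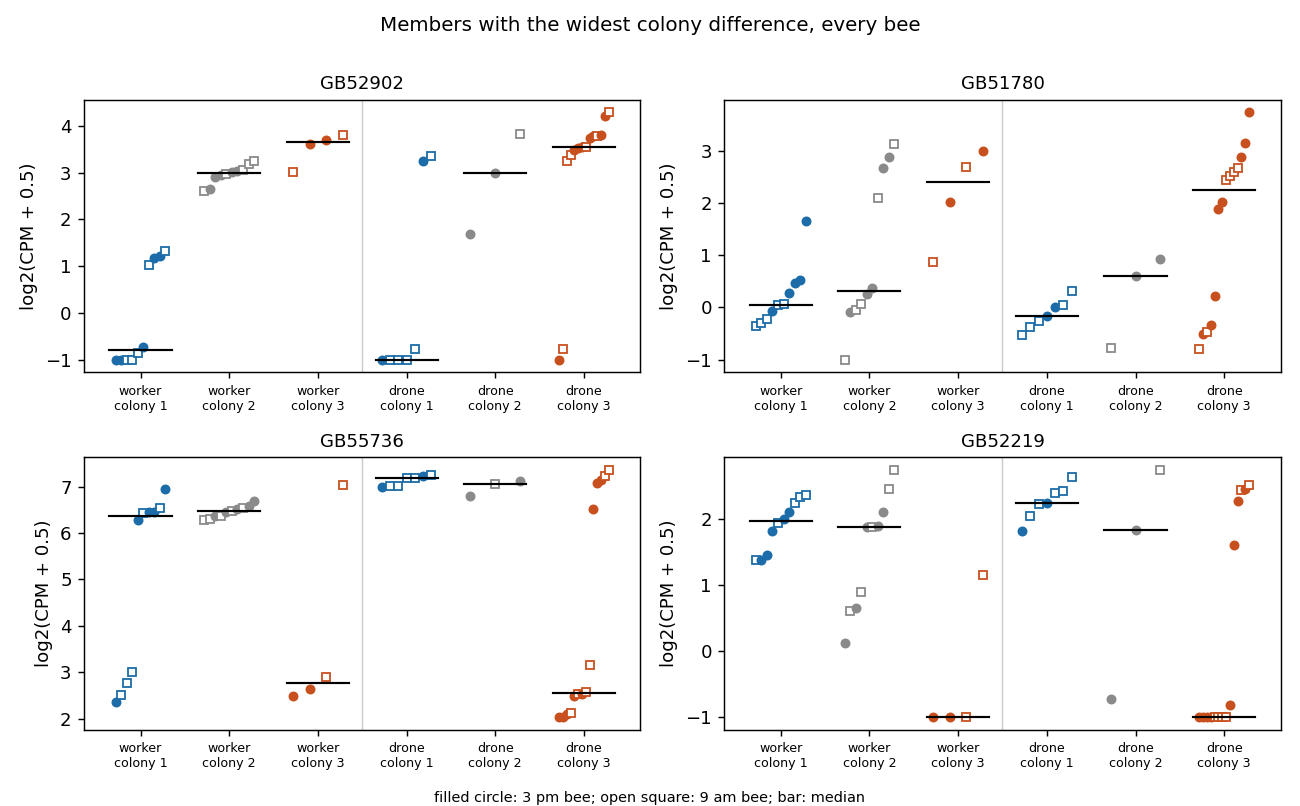
Level of 4 genes in every bee, as log2(CPM + 0.5), by sex and colony; filled circles are 3 pm bees, open squares 9 am bees and bars medians (7, 3 and 14 drones and 10, 10 and 4 workers in colonies 1, 2 and 3). GB55736 forms a high and a low band with no bee between them, as does GB52902 among drones of colonies 1 and 3 only, and these colonies differ in how many bees lie in each band.

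GB54870, another gene higher in colony 3 and chosen after its values were seen, divided the colony 3 drones as GB52902 did. The 2 colony 3 drones low for GB52902 had 0.111 and 0.313 CPM of it, and the other 12 had 3.61 to 8.07 CPM. In colony 1 drones this did not hold: the 5 bees low for GB52902 had 0.288 to 6.21 CPM of GB54870, and the 2 high ones had 0.101 and 1.35 CPM.

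Many of the genes were spread widely within a colony. In colony 3 drones, the highest bee had at least 10 times the level of the lowest (on CPM + 1) in 22 of 60 genes (36.7%), against 175 of 8830 genes (1.98%). In colony 1 drones this held in 16 of 60 genes (26.7%), against 1.17%. The choice used these bees, and it favours genes that vary among them. In colony 2 workers, which had no part in the choice, it held in 5 of 60 genes (8.33%), against 92 of 8830 (1.04%). The SD of log2(CPM + 1) over the 10 colony 2 workers had a median of 0.52 over the 34 higher genes and 0.49 over the 26 lower genes, against 0.29 over all 8830 genes. The 8830 genes were not matched to the 60 for level. The colony 2 worker medians of the higher genes had a median of 6.28 CPM, and those of the lower genes 10.6 CPM. What part level had in the spread was not tested.

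The widest spread over the 14 colony 3 drones was that of GB47546, higher in colony 3, which ran from 6.62 to 2592 CPM (median 405). In colony 1 drones it ran from 0.588 to 848 CPM (median 232), and in colony 3 workers from 0.361 to 47.8 CPM (median 12.0). GB51306, also higher in colony 3, ran from 0.462 to 213 CPM in colony 3 drones (median 45.8) and from 0.0654 to 102 CPM in colony 1 drones (median 17.4). For both genes the ranges of the 2 colonies overlapped widely, and the same colony 3 drone was lowest and the same drone highest. Of the genes lower in colony 3, GB55736 was the most spread, and the next was GB47541. GB47541 ran from 6.37 to 189 CPM in colony 3 drones (median 59.2) and from 31.1 to 436 CPM in colony 1 drones (median 101).

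Colony 2 lay mostly between the other 2. The genes were chosen for the distance between colonies 1 and 3, so this is no finding about colony 2. In workers its median was between those of colonies 1 and 3 in 43 of 60 genes, beyond colony 1 in 12 and beyond colony 3 in 5. In drones these counts were 36, 13 and 11, with only 3 colony 2 drones behind each median. On the log2(CPM + 0.5) scale, the colony 2 median was nearer to colony 1 in 41 of 60 genes in workers and 33 of 60 in drones. It was nearer to colony 1 in both sexes in 22 genes and nearer to colony 3 in both sexes in 8, and in the remaining 30 genes the sexes were divided. Of these, 19 were nearer to colony 1 in workers and colony 3 in drones, and 11 the reverse.

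Each bee was then placed by counting the genes in which it lay on the colony 3 side of the midpoint between the colony 1 and colony 3 medians of its sex, on the log2(CPM + 0.5) scale. Of 60 genes, colony 1 workers had 6 to 30 on that side (median 9.5), colony 2 workers 18 to 30 (median 21) and colony 3 workers 28 to 59 (median 48.5). Colony 1 drones had 8 to 21 (median 14), colony 2 drones 25, 26 and 31, and colony 3 drones 35 to 49 (median 44.5). The placement of colonies 1 and 3 follows from the choice of genes. The midpoints come from the same medians, on genes chosen for their distance, so a place between them is no finding about colony 2. In drones the 3 colonies did not overlap. In workers, 1 colony 1 bee at 3 pm had 30 genes on the colony 3 side, the next colony 1 worker having 16, and 1 colony 3 bee at 9 am had 28. That colony 1 worker was the only library of pool 7; without it the choice found 64 genes, 59 of them among the 60.

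**Figure D2:**
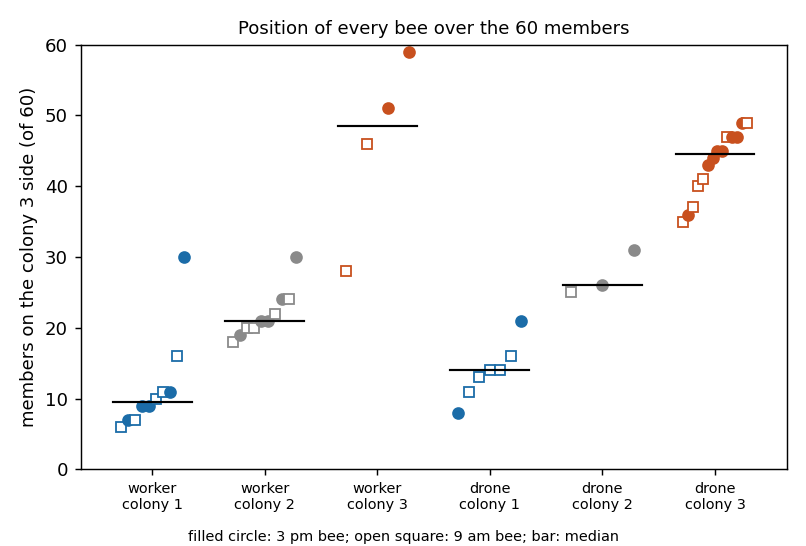
Number of the 60 genes (y axis, 0 to 60) in which each bee lay on the colony 3 side, by sex and colony; circles are 3 pm bees, squares 9 am bees and bars medians. Colony 2 bees, which the choice did not use, sit at 18 to 30 genes in workers and at 25 to 31 in drones, mostly between the bees of colonies 1 and 3.

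Some of the 60 genes carried identifiers close to one another: 16 genes formed 11 pairs whose numbers differed by at most 10. Whether close numbers mean close positions was not examined. The closest pair, GB41435 and GB41436, moved together. In colony 2 workers, GB41435 ran from 15.1 to 34.5 CPM and GB41436 from 31.1 to 73.7 CPM. Over these 10 bees Pearson's r of log2(CPM + 0.5) was 0.87 (permutation p = 4.20e-04, adjusted over the 11 pairs 0.00231), and Spearman's rho was 0.85 (permutation p = 0.00252, adjusted 0.0277). Without the 2 bees farthest from the median of GB41435, r was 0.58.

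GB45910 and GB45913, whose numbers differ by 3, had r = 0.93 over the same 10 bees (permutation p = 1.10e-04, adjusted 0.00121) and rho = 0.79 (permutation p = 0.00905, adjusted 0.0498), with r = 0.88 without the 2 farthest bees. The other 9 pairs with close numbers did not pass on both measures. The permutations did not keep the 2 times of day apart. A high r was not confined to close numbers: GB45913 and GB47475 had r = 0.93 over these bees. Of other pairs with distant numbers, GB52902 and GB54870 had r = -0.22, and GB52219 and GB55736 r = -0.54. These pairs were chosen after their values were seen, and distant pairs were not compared as a set. GB51780 and GB51782, chosen after their values were seen, had opposite colony directions although their numbers differ by 2. The 4 colony 2 workers highest for GB51780 (3.77 to 8.25 CPM) were the 4 lowest for GB51782, with 91.3 to 100 CPM against 111 to 158 CPM in the other 6. Of the 9 colony 3 drones highest for GB51780, 8 were among the 9 lowest for GB51782. Whether the 2 genes overlap could not be looked up, so how reads were divided between them is uncertain; ambiguous reads made up 0.909% ± 0.0829 (SD, n = 48) of the reads tallied per library.

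**Figure D3:**
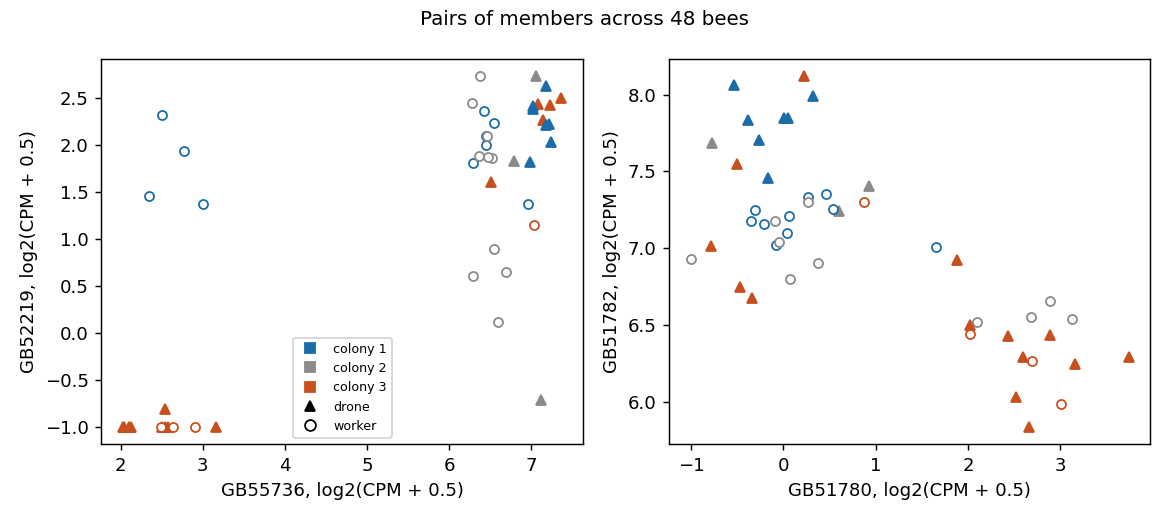
Pairs of genes across 48 bees, both axes log2(CPM + 0.5); triangles are drones, open circles workers, and colours mark the colony. On the left, bees low for both GB55736 and GB52219 come from colony 3 alone, while 4 colony 1 workers are low for GB55736 only; on the right, bees high for GB51780 tend to be low for GB51782.

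The choice pooled the 2 times of day, so activity was tested for each sex, with edgeR's quasi-likelihood test fitted over all 48 libraries and adjusted by Benjamini-Hochberg over 11895 genes. All 60 genes passed the filter on low counts. They had also met the level minimum of 3 CPM in each sex, which the other genes tested did not have to meet. In active workers 1 of 60 genes (1.67%) was higher and 0 were lower, against 2.1% of all genes tested (1.45% higher and 0.656% lower). The gene was GB50091, with 67.8 to 236 CPM in 12 workers at 9 am (median 171) and 145 to 977 CPM in 12 workers at 3 pm (median 234). The 2 ranges overlapped over all workers and within colony 2 (180 to 236 CPM at 9 am and 145 to 317 CPM at 3 pm). Within colony 1 they did not (67.8 to 156 and 220 to 977 CPM). In colony 3 the 9 am workers had 162 and 226 CPM and the 3 pm workers 582 and 695 CPM. The log2 change of GB50091 was 1.12 ± 0.31 (SE, adjusted p = 0.0452). This call was lost in 8 of 10 other settings and when any one of 17 of the 48 bees was left out. Over all 10 settings, kept or lost, the adjusted p ran from 0.0112 to 0.854. Without colony 1 the change was 0.43 (adjusted p = 0.854).

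In active drones 6 of 60 genes rose and 0 fell, against 3.87% of all genes tested (2.49% higher and 1.38% lower). All 6 were among the 34 genes higher in colony 3, and 0 of the 26 lower genes passed. The median log2 change was 0.14 over the 34 higher genes and 0.11 over the 26 lower genes, against -0.01 over all genes tested. The choice and this test were not independent in drones, since 8 of 14 colony 3 drones but 2 of 7 colony 1 drones were taken at 3 pm. What part these uneven times had in the drone ratios was not tested.

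GB50091 had 48.6 to 213 CPM in 12 drones at 9 am (median 81.7) and 171 to 1261 CPM in 12 drones at 3 pm (median 673). Its log2 change was 2.64 ± 0.33 (SE, adjusted p = 1.11e-06). GB52490 had 6.57 to 29.7 CPM at 9 am (median 14.0) and 20.3 to 165 CPM at 3 pm (median 96.5), a log2 change of 2.21 ± 0.32 (adjusted p = 1.03e-05). Both ranges overlapped between the times over all drones. Within colony 3 they did not: GB50091 had 72.6 to 213 CPM in 6 drones at 9 am and 343 to 1261 CPM in 8 at 3 pm, and GB52490 had 10.7 to 29.7 CPM and 53.6 to 165 CPM. In colony 3 drones every 3 pm bee was above every 9 am bee in 6 of the 34 higher genes (17.6%) and in 110 of 8830 genes (1.25%). The choice used these drones, most of them taken at 3 pm, so nothing is read from these shares.

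Of the other 4 genes, GB45906, GB45910 and GB45913 have close numbers and are named here after their values were seen. GB45913 had 103 to 330 CPM in drones at 9 am (median 172) and 164 to 6597 CPM at 3 pm (median 1669), a log2 change of 3.21 ± 0.53 (adjusted p = 1.02e-04). GB45906 changed by 2.52 ± 0.37 and GB45910 by 2.72 ± 0.54 on the log2 scale. In all 3 genes the 3 pm drones above 9 am levels were those of colony 3 and 1 of colony 1. For GB45913, the 8 colony 3 drones at 3 pm had 1241 to 6597 CPM and the 2 of colony 1 had 225 and 1961 CPM. The 2 of colony 2 had 164 and 268 CPM, within the 9 am range.

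The 6 calls were not made without colony 3. In the 10 drones then left, 0 of 60 genes passed in edgeR, and 0 of all genes tested; 9 of the 60 had an unadjusted p under 0.05, and no other tool was run on these bees. The 6 genes then had log2 changes of 1.07 to 2.17 (adjusted p 0.107 to 0.829); that of GB50091 was 2.17, against 2.64 with all bees. Without colony 1 or colony 2, and with pool terms, all 6 passed.

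The colony ratios of these 6 genes are given by time of day. In 9 am drones, colony 3 lay above colony 1 in 2 of the 6, GB50091 with a ratio of 1.27 and GB52490 with 1.36. In GB45906, GB45910, GB45913 and GB47475 it lay below, with ratios of 0.860, 0.423, 0.581 and 0.916. In 3 pm drones the ratio ran from 1.34 to 4.04 in the 6 genes, against only 2 colony 1 drones. GB45906, GB45910 and GB47475 had 1.34, 1.38 and 1.59 there, under the limit of 1.7. In drones these genes thus passed the limit only with both times pooled. Among workers, whose times were even in each colony, colony 3 lay above colony 1 in all 6 genes at both times. Of the other 28 higher genes, 26 lay above in 9 am drones.

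**Figure D4:**
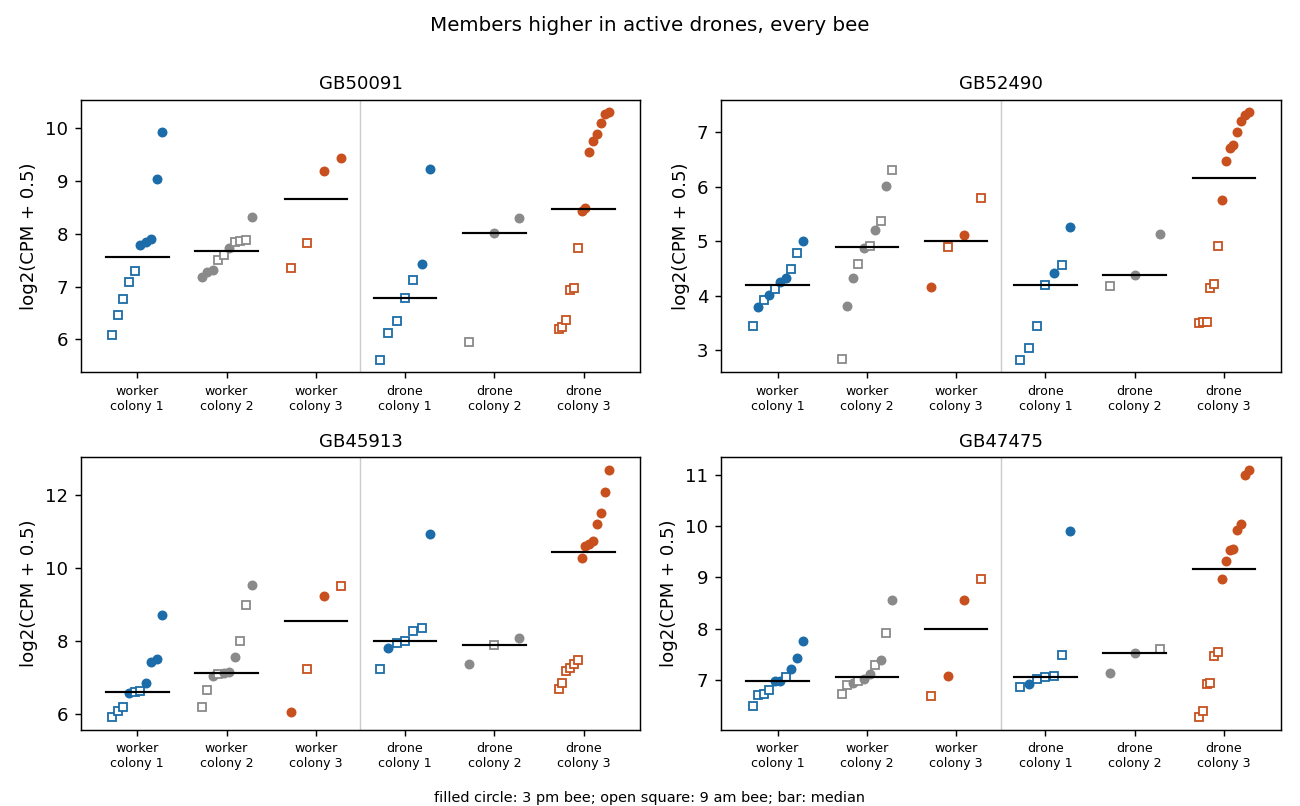
Level of 4 of the 6 genes that rose in active drones, as log2(CPM + 0.5), in every bee by sex and colony; filled circles are 3 pm bees, open squares 9 am bees and bars medians. In colony 3 drones all 8 circles lie above all 6 squares in each of the 4 genes, while in workers circles and squares mix in most groups.

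The activity response itself was then compared between the sexes. It was larger in drones in 2 of 60 genes and larger in workers in 0, 3.33% against 0.303% of all genes tested (0.227% more positive in drones and 0.0757% more positive in workers). The drone response is part of this comparison, so it too was not independent of the choice, and nothing is read from these shares. For GB52490 the drone response exceeded the worker response by 2.30 ± 0.43 on the log2 scale (SE, adjusted p = 0.00371). Its level in workers was 6.60 to 78.8 CPM at 9 am (median 25.2) and 13.4 to 63.9 CPM at 3 pm (median 19.5), and the ranges overlapped. For GB47475 the difference was 2.08 ± 0.47 (adjusted p = 0.0330). GB47475 had 76.5 to 194 CPM in drones at 9 am (median 131) and 121 to 2198 CPM at 3 pm (median 745). In workers it had 89.1 to 499 CPM (median 116) and 122 to 377 CPM (median 143). The call of GB47475 was lost without any one of 13 of the 48 bees and in 4 of 10 other settings, among them pool terms (adjusted p = 0.0772) and leaving out colony 1. Neither gene passed without colony 3 (adjusted p 0.640 and 0.650).

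Drones and workers were compared at the level of each gene, as the mean of the 3 colony means of each sex at equal weight over both times. Of 60 genes, 26 (43.3%) differed, 19 higher and 7 lower in drones, against 43.2% of all genes tested (21.8% higher and 21.4% lower). Of the 34 genes higher in colony 3, 9 were higher and 3 lower in drones. Of the 26 genes lower in colony 3, 10 were higher and 4 lower in drones. The share that differed was close to that of all genes tested. The median absolute log2 difference was 0.65 over the 60 genes and 0.28 over all genes tested.

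Of the genes higher in drones, GB44058 had 19.2 to 106 CPM in 24 workers (median 45.4) and 31.4 to 295 CPM in 24 drones (median 102), a log2 difference of 1.5 ± 0.18 (SE, adjusted p = 2.77e-09). GB44058 was lower in colony 3, with medians of 58.5 and 33.3 CPM in workers of colonies 1 and 3 and 161 and 86.7 CPM in drones. GB41806 had 0.754 to 5.71 CPM in workers (median 2.12) and 2.03 to 62.6 CPM in drones (median 16.9), a difference of 3.18 ± 0.39 (adjusted p = 6.83e-09). For both genes the sexes overlapped. GB41806, higher in colony 3, had medians of 1.68 and 3.27 CPM in workers of colonies 1 and 3, and of 6.15 and 26.3 CPM in drones.

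Of the genes lower in drones, GB51830 had 6.30 to 20.8 CPM in workers (median 14.5) and 3.76 to 27.9 CPM in drones (median 7.00), a log2 difference of -0.56 ± 0.14 (SE, adjusted p = 7.24e-04). The fit weights the colonies equally, whereas 14 of 24 drones came from colony 3, in which the gene was lower in both sexes. Without colony 2 its difference was -0.34 (adjusted p = 0.0955). GB40621 had 1.19 to 22.1 CPM in workers (median 11.9) and 0.210 to 13.2 CPM in drones (median 2.74), a difference of -1.37 ± 0.33 (adjusted p = 7.46e-04). Its worker medians were 16.4, 10.7 and 1.65 CPM in colonies 1, 2 and 3, and its drone medians 3.11, 3.62 and 1.17 CPM, so the medians of the sexes were closest in colony 3, a difference between colonies that was not tested. Without colony 1 its difference was -0.86 (adjusted p = 0.209).

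**Figure D5:**
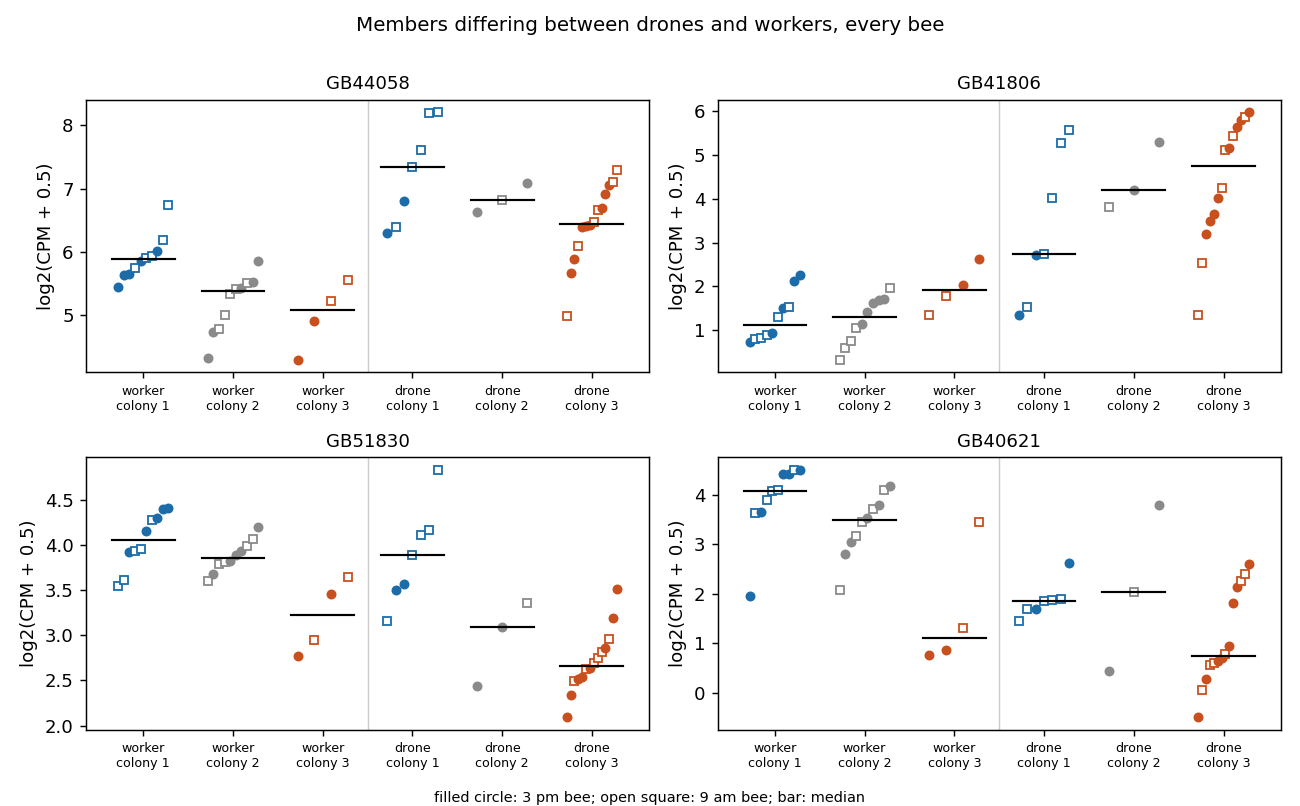
Level of 4 genes that differed between drones and workers, as log2(CPM + 0.5), in every bee by sex and colony; filled circles are 3 pm bees, open squares 9 am bees and bars medians. GB44058 and GB41806 are higher and GB51830 and GB40621 lower in drones, and within each sex the bars of colony 3 lie below those of colony 1, apart from GB41806, where they lie above.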

How the data were processed

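The deposited files hold raw counts of reads per gene, 1 file per bee. Per the submitters' processing notes, the authors used edgeR 3.4.2, HTSeq 0.5.4, TopHat2 2.0.10, Trimmomatic 0.30, CASAVA 1.8.2 and SAMtools. The marks Amel4.5 and OGS3.2 stand on the files themselves. The counting mode and the strand setting were not given in the sources used here. In each library 5 summary rows name no gene and were left out; reads outside genes made up 28.0% ± 1.73 (SD, n = 48) and reads not aligned uniquely 2.68% ± 0.181 of the reads tallied. Of the 15314 identifiers, 0 matched the RefSeq name table, and 1074 had no read.

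Levels are CPM, counts for each 1000000 gene reads of the library. Tests used edgeR 4.0.16 in R 4.3.3 (TMM scaling, filterByExpr by sex and colony, 11895 genes), with 6 sex-by-colony means and an activity term per sex; 0.05 was the threshold of the adjusted p, and SE is the log2 difference over the square root of F. The 60 genes and the gene lists were chosen with earlier results of these data known; lists of named marker genes could not be matched. Identifiers are named by fixed rules: the 2 genes in each direction whose smaller log2 colony difference of the 2 sexes is largest, the 2 lowest p in each direction of each test, the 2 widest spreads over colony 3 drones in each direction, and the pair with the closest numbers; others are said to be chosen after their values were seen. Alternatives were other scaling, no filter, DESeq2 1.42.0, limma-voom (limma 3.58.1), pool terms, a replicate block, additive colony effects, leaving out a colony or a library, and other limits of the choice.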

Additional observations from a re-analysis of the deposited data

Results flagged for a closer look

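In 68 groups of bees, made of the 16 genes named by rule and the bee positions by sex and colony, 20 held a bee that stood apart from the rest of its group. Only groups of 4 to 10 bees were examined, so drones of colony 2 (3 bees) and colony 3 (14 bees) were left out. Chance gives about 5% of groups only if the groups are independent and the values within each group are normally distributed. The groups were not independent, since the same bees recur and some genes were named for their spread. Gene levels were compared as CPM, without logs, and their distribution was not tested. The 20 of 68 are therefore not read against 5%. No cause was tested for any of the 20.

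The 9 am colony 3 worker numbered 11 stood apart in 4 genes, among only 4 bees. It had 130 CPM of GB55736 (next 6.98), 1.72 of GB52219 (next 0), 10.4 of GB40621 (next 1.99) and 96.3 of GB47541 (next 17.5), each toward the level of colony 1. The colony 3 worker numbered 11 at 3 pm was low for GB41436, with 43.1 CPM (next 72.9).

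The 3 pm colony 2 worker numbered 10 was high in 4 genes: 376 CPM of GB47475 (next 242), 157 of GB47546 (next 23.7), 317 of GB50091 (next 236) and 90.9 of GB51306 (next 17.1). It had 30 genes on the colony 3 side (next 24). The 3 pm colony 1 worker numbered 4, the only library of pool 7, had 977 CPM of GB50091 (next 525), 2.64 of GB51780 (next 0.948) and 30 genes on the colony 3 side (next 16).

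Other colony 1 workers stood apart at 9 am: number 5 with 21.9 CPM of GB47546 (next 8.25) and 15.1 of GB51306 (next 7.26), number 3 with 14.3 of GB41436 (next 37.2), and number 2 with 106 of GB44058 (next 72.2). Of the 2 colony 1 drones taken at 3 pm, number 2 had 965 CPM of GB47475 (next 178) and 596 of GB50091 (next 171), and number 1 had 5.64 of GB40621 (next 3.24).

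The activity response was larger in drones than in workers for GB52490 (by 2.30 on the log2 scale) and GB47475 (by 2.08), by the test of the difference itself.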

How the results depend on the processing

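The direction of change was checked only for the genes named by their lowest p in a test, and for none of these did it reverse. The count of genes depended on the limits: 101 with ratios of 1.5, 31 with ratios of 2, 108 with a minimum of 1 CPM, 33 with 10 CPM and 92 with 3 pm bees only (35 of them among the 60). It was 43 with 9 am bees only (16 among the 60), 44 with means, 55 with TMM scaling, and 49 to 70 when one bee was left out. The single gene called in active workers gave way to 0 with other size factors, no filter, limma-voom, pool terms, additive colony effects, or without colony 1 or colony 3 (4 to 7 of the 60 at an unadjusted p under 0.05 in these), and to 2 with DESeq2 or without colony 2; it was 0 to 2 with one bee left out. The 6 genes called in active drones became 0 without colony 3 and were the same 6 in the other 9 settings and with any bee left out. The 2 genes whose response differed became 5 with DESeq2, 1 with limma-voom and 0 without colony 3 (5 at an unadjusted p under 0.05), and 1 to 4 with one bee left out; with pool terms and without colony 1 the count was 2 but held 1 of the same genes. The count differing between the sexes was 21 to 31, and 20 to 29 with one bee left out.

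Replicate numbers are shared by the groups and were not taken to pair the bees. Same-numbered bees correlated above 0.1 in 6 of 12 worker pairs and 4 of 12 drone pairs, and a bee correlated best with its own number in 4 and 2 of 12. These values cannot settle whether the numbers pair bees. No values for unlike numbers were set beside them, and same-numbered workers also share a colony. With the replicate block, 1 gene was called in active workers (not the same gene), 6 in active drones, 2 for the response difference and 24 between the sexes.

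Colony 2 drones (3 bees) and colony 3 workers (4) limit what their medians show, and levels near 0.1 CPM rest on 1 or a few reads.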
